A study of Gallus gallus with 60 samples.

Results

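The variation between individual laying hens of 1 line was described in the posterior cerebrum, with 29 Lohmann Brown (LB) hens out of the 32 LB hens and the 60 hens of the series. LB hens 7, 8 and 16, all from compartments of 54, were left out because their arrays had lost signal at the 5' ends of transcripts. The remaining LB hens were 14 from compartments of 54 hens and 15 from compartments of 36 hens, all 65 to 67 weeks old, of a brown layer line for egg production kept in a small group housing system. The right posterior cerebrum was taken from 25 of them and the left from 4, and each hen gave 1 array. Where LB was set against the white line, Lohmann Selected Leghorn (LSL), all 28 LSL hens of the same age served, 15 from compartments of 54 and 13 from compartments of 36. Per the methods, hens were picked with an eye to stressed and unstressed animals and several came from 1 compartment. Neither state nor compartment is given per hen in the sources used here, so hens that shared a compartment were treated as independent and p-values may be too small.

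The avian posterior cerebrum holds pallial areas rich in excitatory neurons, parts of the striatum below them, and glia and vessels throughout. It borders on the choroid plexus of the ventricle, which makes cerebrospinal fluid and secretes transthyretin, and on the meninges, which the methods say were removed. Neuropeptides such as cholecystokinin and transcription factors such as those of the ZIC, LHX and ROR families are each known from particular regions of the brain. In bulk tissue, fewer cells of a type and less RNA per cell cannot be told apart.

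Each value was a log2 value minus the LB median of the same probe set within the hen's own set of arrays (hens 1 to 30, 12 of those described, or hens 31 to 60, 17 of those described). The LB median of every probe set was thereby 0, and values say how a hen differed from the middle hen, not how strongly a gene was expressed. For this reason, the presence of defining brain markers could not be checked by level. The log2 difference between the 5' and the 3' actin probe sets, a measure of RNA integrity, lay between -0.76 and 0.24 in the 29 hens (median 0.04), against -1.33 to 0.20 in LSL and -2.89 to -1.69 in the 3 hens left out. Hens 10, 26 and 25 had the lowest values of the 29, with -0.76, -0.50 and -0.37. Between 41 and 247 probe sets per hen lay 1 log2 unit or more from the median (hen 54 had 247, hen 4 had 230), against 728 to 1404 in the hens left out.

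Most genes differed little between LB hens. The standard deviation (SD) over the 29 hens had a median of 0.13 on the log2 scale across the 38535 probe sets, and 523 probe sets (1.36%) reached an SD of 0.5. These included 417 probe sets with 1 gene symbol, of 368 genes, while 100 had no symbol and 6 several. An SD of 1 was reached by 38 probe sets. Of the 100 probe sets with the largest SD among hens 1 to 30, 56 were also among the 100 largest in hens 31 to 60, and 87 had an SD of at least 0.5 there. Among LSL hens the median SD was 0.15 and 548 probe sets reached 0.5. The lines shared 266 of these, which is 50.9% of the LB and 48.5% of the LSL probe sets. Variation of a gene rested mostly on 1 probe set: of 272 such LB genes with several probe sets, 38 had at least 2 with an SD of 0.5, and in 9 all reached it.

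A probe set without symbol had the largest SD of all, 1.95, with 8 hens between -4.12 and -3.78, 21 between -0.13 and 1.57, and an SD of 0.21 in LSL. The first 20 of those with 1 symbol stood for 18 genes and were a mixed group of endosomal, choroid plexus, plasma cell, matrix and mitochondrial genes. RAB22A, a small GTPase of early endosomes, led them with an SD of 1.90. Its values ran between -2.81 (hen 35) and 3.76 (hen 29), with 9 hens above 1 and 12 below -1. A second RAB22A probe set (SD 0.84) followed the first over the hens (r = 0.91), and the remaining one did not (SD 0.12, r = 0.13). In LSL hens the leading probe set had an SD of 0.28.

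SRI encodes sorcin, a calcium-binding protein that acts on calcium release channels. Its SD of 1.74 came from 5 hens (3, 4, 10, 25 and 39) with values of 4.20, 4.68, 4.65, 4.54 and 4.22, while the other 24 lay between -0.33 and 0.24. No hen fell in between. Over LSL hens the SD of this probe set was 1.96, with values between -7.20 and 0.89 around their own median. The difference in spread between the lines was 0.22 in limma (standard error 0.45, adjusted p = 0.96). The 2 other SRI probe sets had SDs of 0.10 and 0.09. CA5A, a mitochondrial carbonic anhydrase, showed the opposite form, with 10 hens between -4.03 and -2.32 and 19 between -0.34 and 0.60. Its SD was 1.68 in LB and 0.87 in LSL (difference in spread 0.69, adjusted p = 0.60 in limma).

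TTR, the gene of transthyretin, the carrier of thyroid hormone in cerebrospinal fluid, lay between -2.04 (hen 57) and 3.35 (hen 42), with an SD of 1.56 in LB and 1.09 in LSL. SLC13A4, a sodium-coupled sulfate transporter, lay between -0.42 and 4.31, with hens 3, 42 and 50 at 4.31, 3.66 and 3.11. The same 3 hens were also highest for TTR, with 3.35 in hen 42 and 3.22 in hen 50. SOD3, the extracellular superoxide dismutase, reached 4.04 in hen 3 and had an SD of 1.12.

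JCHAIN, the joining chain of secreted IgM and IgA, ranged between -3.49 (hen 44) and 2.74 (hen 23), with an SD of 1.54 in LB and 1.49 in LSL. Both lines thus had a spread of similar size. IGLL1, an immunoglobulin light chain gene, followed it: 5 of its 8 probe sets, JCHAIN and 1 probe set without symbol formed a tight cluster with a mean pairwise r of 0.97 over LB hens and 0.93 over LSL hens. Hens 23, 26 and 50 were highest in this cluster and hens 44, 11 and 39 lowest. The T cell gene CD3E on the same list of lymphocyte and plasma cell markers had an SD of 0.41.

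KIT, the receptor for stem cell factor, had an SD of 1.39 and fell to -3.01 in hen 11, -2.88 in hen 25 and -2.56 in hen 46, against a highest value of 1.97 in hen 45. ZIC1, a zinc finger transcription factor of the developing brain, had SDs of 1.24 and 1.14 at its 2 probe sets. Hen 54 alone gave 5.31 and 5.40 there, and the next hen 1.71 and 1.67. DSP, the desmosomal linker desmoplakin, lay between -0.70 and 3.62 at its leading probe set, and 7 hens were above 1. CCN3, a secreted matricellular protein, reached 2.78 in hen 18.

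Among the others, GUCY1A2, a subunit of soluble guanylate cyclase, had 4 hens far below the others (SD 1.18 in LB, 0.28 in LSL). NDUFS1, a subunit of respiratory complex I, had an SD of 1.13 in LB and 1.12 in LSL. MRPS6, a protein of the small mitochondrial ribosomal subunit, had 10 hens below -1, the lowest at -3.15 in hen 54, and none above 0.71. IAPP, the amylin precursor, reached 3.96 in hen 34, 3.90 in hen 58 and 3.06 in hen 23. CCDC84 (SD 1.23) and PRTFDC1 (SD 1.15), a protein related to the purine salvage enzyme HPRT, completed the list. At 29 further probe sets of these 18 genes the SD was between 0.07 and 1.10, and 6 had an SD of 0.5 or more.

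**Figure D1:**
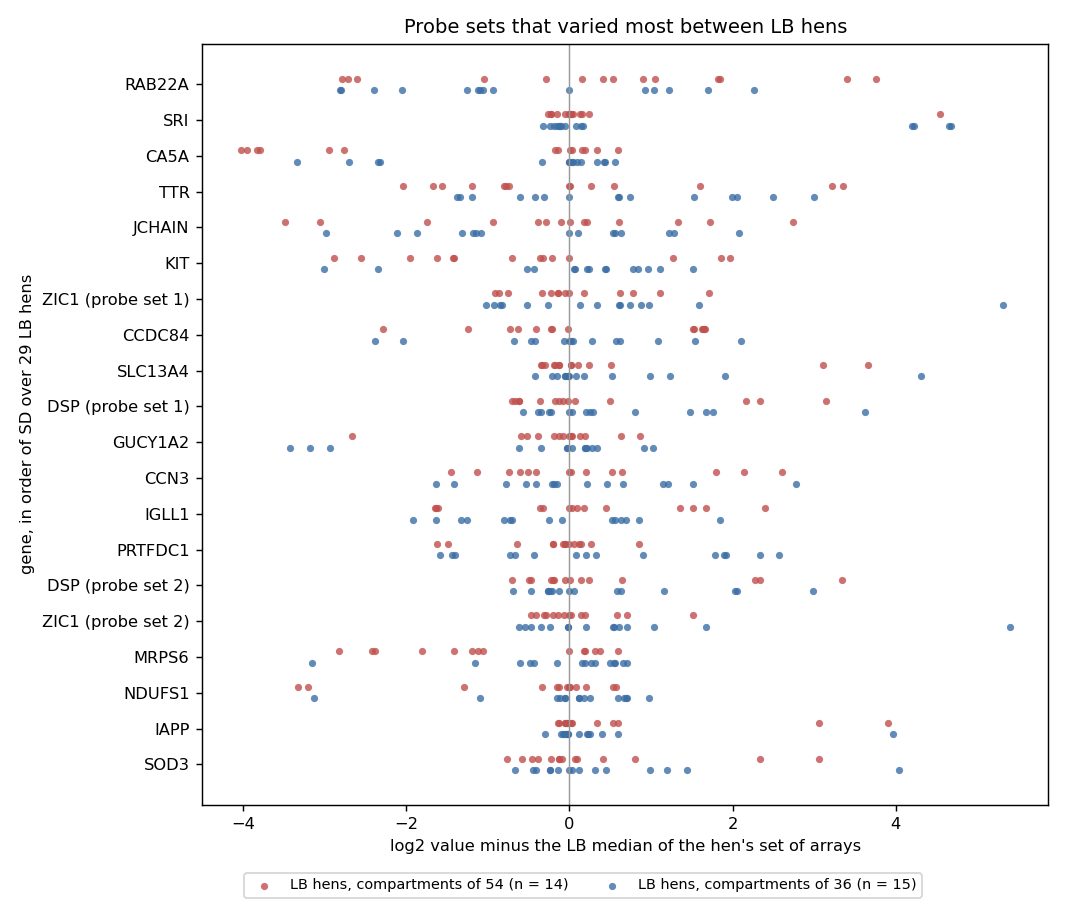
Log2 value minus the LB median of the hen's set of arrays (x axis) for the 20 leading probe sets that have 1 symbol, 1 row each; every point is 1 of 29 LB hens, red for compartments of 54 and blue for compartments of 36. SRI shows 5 hens above 4 and no hen between these and 0.24, CA5A shows 10 hens at or below -2.32, and TTR a continuous spread.

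To find genes that varied together, the 500 probe sets with the largest SD were clustered by their correlation over the 29 hens, cut at a mean r of 0.6. The 6 groups with at least 8 probe sets held 213 of the 500. The mean r of all pairs of probe sets on the array was 0.00 and that of the pairs among the 500 was 0.11. As the groups were made from these values, their correlation over LB hens is a description, and the LSL hens, which the clustering did not use, are given beside it. A hen's score is the mean of the standardized values of a group's members.

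The MAP1A group was the largest, with 130 probe sets (114 with 1 symbol, of 95 genes), a mean r of 0.77 over LB hens and of 0.71 over LSL hens. Its leading members were MAP1A, a protein of neuronal microtubules, REXO1, an RNA exonuclease, NBAS, a factor of transport from the Golgi to the endoplasmic reticulum, and CALN1, a neuronal calcium sensor. Next to these stood the transcriptional repressor ZBTB18, the splicing regulator SREK1, the membrane skeleton protein ADD1 and THSD7A, a membrane protein with thrombospondin domains. MAP1A lay between -1.09 (hen 13) and 1.06 (hen 4), and the median SD of the group was 0.57. Scores were highest in hens 4, 6, 11, 2 and 3 (1.68, 1.51, 1.12, 1.07 and 0.88), all from compartments of 36 and from the first set of arrays. Of the 12 hens described in that set, 8 came from compartments of 36. Over both sets the scores were 0.17 ± 1.04 in compartments of 36 and -0.18 ± 0.66 in compartments of 54 (SD, n = 15 and 14). Hens 36, 13, 18 and 57 were lowest, with -1.49, -1.40, -1.28 and -1.25. Of these, hens 36 and 18 came from compartments of 36 and hens 13 and 57 from compartments of 54. The actin difference of the 5 highest hens was between -0.14 and 0.11 and that of the 4 lowest between -0.06 and 0.08. Hens 10, 25 and 26, with the lowest actin differences, had scores of -0.57, -0.31 and -0.30. The part of RNA integrity in the score was not tested. The score of the endothelium and pericyte list ran between -1.29 and 0.76. It was lowest in hens 4, 6 and 11, which were the 3 highest of the MAP1A group. PECAM1, the gene of that list with the largest SD, is itself a MAP1A group member and went the other way, highest in hen 4 (1.10). The score of the ribosomal protein list was lowest in hens 3, 11 and 2. The part of these lists in the group was not tested. By set of arrays the mean r was 0.81 in hens 1 to 30 and 0.76 in hens 31 to 60.

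The DSP group of 28 probe sets held genes of cell junctions and extracellular matrix. Beside the 3 probe sets of DSP it contained PKP2, plakophilin of desmosomes, MXRA8, a matrix remodelling associated membrane protein, SLC13A3, a dicarboxylate transporter, TBCK, a protein with a kinase-like domain, LUM, the matrix proteoglycan lumican, and CCN3. LUM lay between -0.61 and 2.19 and PKP2 between -0.73 and 2.41, with hen 18 highest for both. Scores rose above 1 in 5 hens, namely 18, 45, 53, 10 and 43 (2.40, 1.95, 1.43, 1.15 and 1.07), against 0.90 in the next. The mean r was 0.77 over LB hens and 0.82 over LSL hens. On the list of meningeal and fibroblast genes, which shares LUM and COL1A2 with this group, 6 of 25 measured genes had a probe set with an SD of 0.5 or more, led by LUM (0.85), COL1A2, the collagen I chain (0.73), COL6A3 and MGP (0.56 each). The score of that list was highest in hens 18, 43 and 53, and its range over all 29 hens was -0.65 to 0.59. The mean r of the list's probe sets was 0.07. COL6A3 belonged to the CCK group described below, and COL6A3 and MGP were highest in hen 4, whose DSP group score was 0.12. How far remains of meninges entered these values was not tested.

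The ZIC1 group of 19 probe sets rested on 1 hen. Hen 54, a right-side sample from a compartment of 36, had a score of 4.57, and the next hen 0.20. USP43 was 4.33 in hen 54 against at most 0.36 in the other 28, ZNF385B 4.20 against 0.28, GABRA6 3.20 against 0.23, LHX1 2.78 against 0.56, UNC13C 2.74 against 0.30, and GJD2 2.67 against 0.53. GABRA6, a subunit of the GABA-A receptor, is known from granule cells of the cerebellum in mammals, LHX1 from Purkinje cells and ZIC1 from granule cells, and CBLN1, the cerebellin precursor, named after its value was seen, was 4.24 in hen 54 against at most 0.43. EGFL6, a secreted matrix protein, was 3.85 against 0.60. Without hen 54 the mean r of the group was 0.08 over the other 28 LB hens, and over LSL hens it was 0.16. By rank over all 29 hens, its score followed that of the DSP group (Spearman rho 0.86, Pearson r 0.10). Next to hen 54, ZIC1 was highest at 1 probe set in hens 45, 18 and 53 (1.71, 1.59 and 1.11), which also had high DSP group scores. The part of the DSP group's genes in these values was not tested. The actin difference of hen 54 was 0.02. Whether tissue of another region entered this sample was not tested.

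The CCK group of 18 probe sets held genes of neuropeptides and of regional identity. It contained CCK, the cholecystokinin precursor, RSPO3, a secreted enhancer of WNT signals, AVP, the precursor of the avian antidiuretic peptide vasotocin, the transcription factors NHLH2 and PRRX1, and KIT, besides DRD5, a dopamine receptor, and VIP, vasoactive intestinal peptide. CCK was lowest at -1.40 in hen 25 by 1 probe set and at -2.84 in hen 46 by the other, and highest in hen 4 by both. AVP lay between -1.83 (hen 11) and 0.96 (hen 53). Scores were lowest in hens 25, 46, 11 and 26 (-1.54, -1.40, -1.28 and -1.19) and highest in hens 4 and 53 (1.31 and 1.28). The mean r was 0.73 over LB and 0.55 over LSL hens. The score of the myelin list was highest in hen 46 (its range over the 29 hens was -0.74 to 0.91), and its part in the low values of that hen was not tested.

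The SULF1 group of 10 probe sets shared its low hens. It contained SULF1, a sulfatase of heparan sulfate, the transcription factors NEUROD6, RORB and SATB1, known from cortical neurons in mammals, FIGN, a microtubule severing protein, the potassium channel gene KCNH7 and the receptor gene GPR26. SULF1 was -2.24 in hen 25 and -2.06 in hen 46 as the lowest values of its 2 probe sets, and NEUROD6 was -1.43 in hen 25. Scores were -2.28 in hen 25, -2.07 in hen 46, -1.15 in hen 48 and -1.12 in hen 26, against -0.96 or higher in the others. Hens 25, 46 and 26 were thus among the 4 lowest of both groups. The actin difference of hens 25 and 26 was low (-0.37 and -0.50), whereas that of hen 46 was 0.07. Hens 25 and 46 came from compartments of 54, and hen 46 was a left-side sample. With the actin difference regressed out, none of the 10 probe sets was in a group of 8 or more, while all 18 of the CCK group were kept in 1 group. Without hens 10, 25 and 26, at most 3 of the 10 were in 1 group, against 12 of the 18. The mean r of the members changed little without these 3 hens, to 0.72 in the SULF1 group (0.75 with them) and 0.71 in the CCK group (0.73 with them). In LSL hens the mean r of the SULF1 group was 0.34, against 0.75 in LB hens, and the difference was not tested.

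The SOD3 group of 8 probe sets held genes of transport and secreted proteins, among them TTR and SLC13A4 of the choroid plexus list: SOD3, the zinc transporter SLC30A8, SLC13A4, TF, the transferrin gene with 2 probe sets, the cation transporting ATPase ATP13A5, TTR and CYTL1, a small secreted protein. Scores were 2.98 in hen 3, 2.15 in hen 42 and 1.39 in hen 50, against at most 0.78 in the other 26. SLC30A8 was 2.79 in hen 3 and CYTL1 4.31 in hen 42. The mean r was 0.75 over LB hens and 0.54 over LSL hens. With the cut at r of 0.7, and with all 32 LB hens, 0 of its 8 members were in a group of 8 or more. In the other settings 7 or 8 of them stayed in 1 group. Of 28 measured genes on the list of choroid plexus and ependyma 3 had an SD of 0.5 or more, TTR, SLC13A4 and OTX2, a transcription factor of this epithelium that reached 3.87 in hen 4. The next OTX2 value was 1.58, and OTX2 lay in a cluster of 3 probe sets whose score was highest in hens 4, 42 and 3. Another OTX2 probe set was 2.15 in hen 4 and at most 0.41 in the other hens. The score of the whole list over the 29 hens was between -0.94 and 0.44 and highest in hens 3, 25 and 45, so that hens 42 and 50 were not among its 3 highest. The mean r of the list's probe sets was 0.05. The part of choroid plexus in the samples of hens 3, 42 and 50 was not tested.

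**Figure D2:**
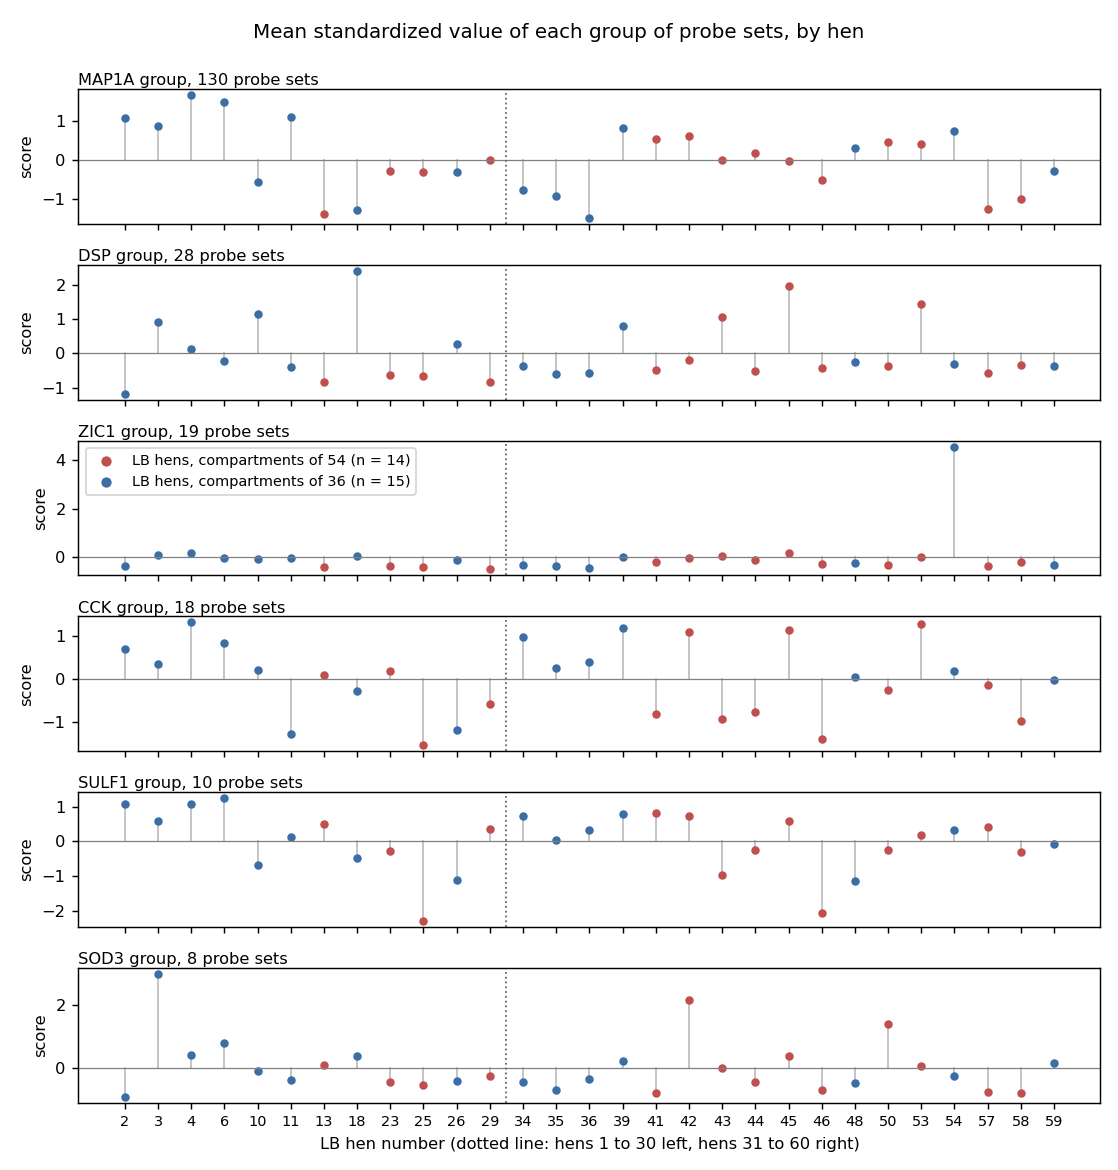
Mean standardized value (score, y axis, no unit) of the members of each of the 6 groups by LB hen (x axis, hen number), red for compartments of 54 and blue for compartments of 36; the dotted line parts the sets of arrays. Hen 54 stands alone in the ZIC1 group at 4.57, 3 hens stand above 1 in the SOD3 group, and hens 25 and 46 are the lowest 2 in the CCK and the SULF1 groups.

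Among clusters of fewer than 8 probe sets, 1 joined IAPP with PENK, the enkephalin precursor, and LHX8, a factor of basal forebrain neurons, together with TMEM61, GPSM1 and CBLN3. It had a mean r of 0.75 over LB and 0.83 over LSL hens, and hens 34, 58 and 23 were highest. PENK lay between -1.05 and 2.22 and LHX8 between -0.43 and 2.42, both highest in hen 34. These names and those of the next clusters were chosen after their values were seen. PRTFDC1 formed a cluster with 2 probe sets of ENKUR, the gene next to it in the RefSeq annotation, with a mean r of 0.75 in LB and 0.32 in LSL hens. BF2, a class I gene of the major histocompatibility complex (MHC), varied with NDST3 and 2 probe sets without symbol (mean r 0.78 in LB and 0.33 in LSL hens), with hens 58, 2 and 4 highest.

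Separate levels were called where a gap of at least 1 on the log2 scale, and at least 2 times the pooled SD within the levels, left 3 or more hens on each side. Over the 29 hens, 18 probe sets met this, 14 of them with 1 symbol. No further gap of this kind was found within their levels. Levels with too few hens to leave 3 on each side could not show one. Since centring can set the same level at different values in both sets of arrays where levels are about equally common, the rule was also applied within each set with at least 2 hens on each side. There 12 probe sets showed levels in both sets, and 7 did so in both ways, so that 23 showed levels in either. Of the 18, 6 also had levels over LSL hens, where 28 probe sets met the rule. These 6 were IAPP, NDUFS1, DIEXF, PPP6R3, BROX and 1 probe set without symbol.

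Of the 23, 19 had 1 symbol, and the gap was largest in SRI, with an empty stretch of 3.96 between 24 and 5 hens. Of the 14 hens from compartments of 54, 13 were at the low level and 1 at the high level, and both levels also held hens from compartments of 36. In limma the difference between compartments of 54 and of 36 was -0.56 (standard error 0.60, adjusted p = 0.94). The next largest gap was that of IAPP, with 26 hens between -0.30 and 0.60 and 3 hens between 3.06 and 3.96 (gap 2.46). Over LSL hens IAPP had levels too, with 22 hens between -0.41 and 0.73 and 6 between 1.92 and 4.89. In GUCY1A2, 4 hens lay between -3.43 and -2.67 and 25 between -0.62 and 1.03, and of these 4, 2 belonged to either set of arrays. HSCB, a co-chaperone of iron-sulfur cluster assembly, had 3 hens between -2.89 and -2.23 and the other 26 at -0.23 or higher, while over LSL hens its SD was 0.14.

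CA5A showed its levels in both sets of arrays. In hens 1 to 30, 5 hens lay between -2.95 and -2.32 and 7 between -0.34 and 0.60. In hens 31 to 60, 5 lay between -4.03 and -3.34 and 12 between -0.18 and 0.19. The other 2 CA5A probe sets had SDs of 0.12 and 0.10. NDUFS1 had 3 hens between -3.33 and -3.13, all in the second set of arrays, and levels over LSL hens as well, with 3 hens between -3.13 and -2.72.

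RAB22A met the rule within both sets of arrays but not over the 29 hens together. In hens 1 to 30, 6 hens lay between -1.25 and -0.93 and 6 between 0.93 and 3.76. In hens 31 to 60, 7 lay between -2.81 and -2.05 and 10 between -0.29 and 1.84. The second RAB22A probe set placed the same 6 hens lowest in the first set of arrays. At the leading RAB22A probe set LSL hens lay between -0.74 and 0.39 around their own median.

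DIEXF, a nucleolar protein of ribosome production, had 5 hens between -2.31 and -1.95 and 24 at -0.44 or higher, and 12 of the 28 LSL hens lay at a low level too. SHQ1, an assembly factor of small nucleolar ribonucleoproteins, had 2 of 12 and 8 of 17 hens at the high level of the 2 sets. PPP6R3, a regulatory subunit of protein phosphatase 6, had 10 hens between -2.42 and -1.32 and 19 between -0.14 and 1.62. LSM14A, an RNA-binding protein of P bodies, had 3 high hens (2.06 to 2.78), and SCN8A, a voltage-gated sodium channel, 3 low hens (-2.01 to -1.61). SLC13A4, with its 3 high hens, also met the rule.

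BROX had 6 hens from 1.44 upwards and 23 between -0.77 and 0.27. All 6 high hens came from compartments of 36, in limma a difference between compartments of 54 and of 36 of -0.71 (standard error 0.24, adjusted p = 0.77). PRTFDC1 had its 5 highest hens, all from compartments of 36, in the first set (1.78 to 2.57), but 5 low hens (-1.62 to -1.40) in the second. These 5 low hens came from both compartment sizes. Of the 12 hens described in the first set, 8 came from compartments of 36. In limma the PRTFDC1 difference between compartments of 54 and of 36 was -0.38 (standard error 0.38, adjusted p = 0.94). In hens 1 to 30, all 3 ENKUR probe sets placed 6 of the 7 low hens of PRTFDC1 among their 7 lowest, whereas in hens 31 to 60 they shared 2 or 3 of 5.

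In hens 1 to 30, the 2 low hens of DIEXF were the 2 high hens of SHQ1, the only pair with levels in both genes that parted all hens of a set alike. In hens 31 to 60, however, 11 of 17 hens were on the same level of both genes and 6 on opposite levels. Of the 43 further probe sets of the genes with levels, 4 had an SD of 0.5 or more, those of RAB22A (0.84), DIEXF (0.77), PPP6R3 (0.66) and SCN8A (0.55). The RAB22A probe set had 6 of 6 low hens of hens 1 to 30 and 6 of 7 of hens 31 to 60 among its own lowest, but those of DIEXF, PPP6R3 and SCN8A had 0 of 5, 1 of 10 and 0 of 3 of the low hens there. Another SHQ1 probe set with an SD of 0.41 placed all 19 low hens of SHQ1 lowest, and another GUCY1A2 probe set (SD 0.31) 3 of 4.

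**Figure D3:**
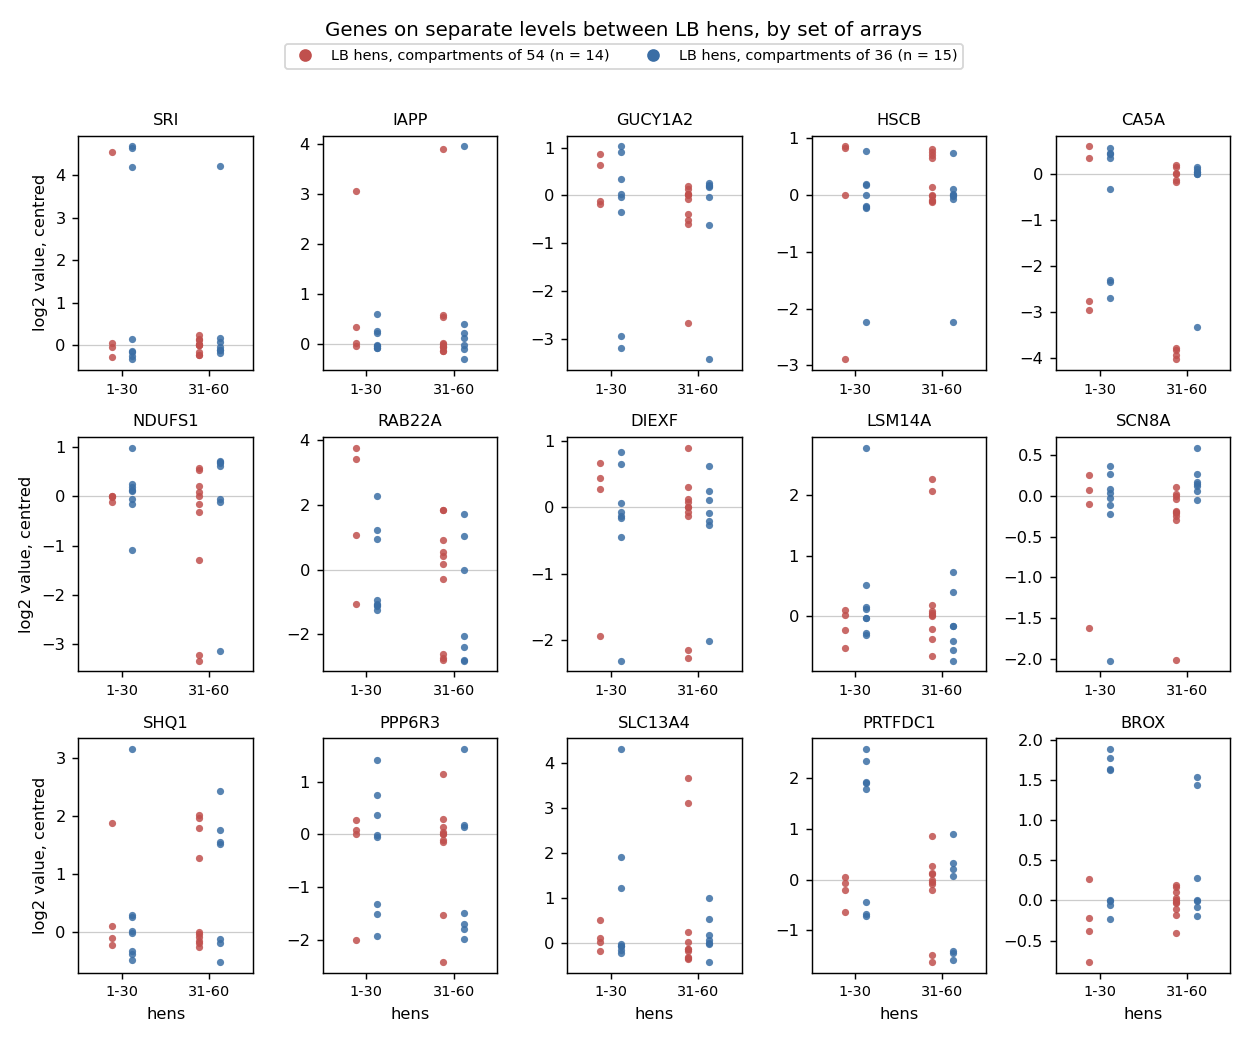
Log2 value minus the LB median of the set (y axis) for the 15 genes with the largest gaps, in hens 1 to 30 and hens 31 to 60 (x axis); every point is 1 of 29 LB hens, red for compartments of 54 and blue for compartments of 36. CA5A and GUCY1A2 show 2 levels in both sets, IAPP and SRI a few hens far above the others, and all 6 high hens of BROX are from compartments of 36.

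On 26 lists of genes by function or cell type, the number of probe sets with an SD of 0.5 or more over LB hens was counted, beside 1.36% of all probe sets. Pallial genes had 10 of 42 probe sets (7 of 23 genes), with CCK, RORB, LHX9 and MEF2C in front (SDs of 1.01, 0.80, 0.67 and 0.65), and their median SD was 0.27, against 0.13 on the whole array. They did not vary as a set, with a mean r of 0.02 over LB hens. CCK and RORB were highest in hen 4, LHX9 in hen 26 or hen 11 depending on the probe set, and MEF2C in hen 6. Neuropeptide precursors had 7 of 36 probe sets, among them CCK, VIP (SD 0.95), AVP (0.89) and TAC1, the substance P precursor (0.73). Striatal genes had 4 of 57, led by DRD5 (0.75) and TAC1, and interneuron genes 4 of 33. These interneuron probe sets were those of ZIC1 (SDs of 1.24 and 1.14), VIP and LHX8 (0.65). At the ZIC1 probe sets hen 54 stood far above the others, with 5.31 and 5.40 against 1.71 and 1.67 in the next hen. Lymphocyte and plasma cell genes had 6 of 38, all of them of JCHAIN and IGLL1.

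Genes of the stress response varied at single members. SGK1, a kinase induced by glucocorticoids, had an SD of 0.78 and fell to -1.60 in hen 25. NR3C2, the mineralocorticoid receptor and a member of the MAP1A group, had 0.68, and PDK4, a kinase that slows pyruvate oxidation, 0.61, so that 3 of the 26 probe sets of the glucocorticoid list reached 0.5. On the list of immediate early genes 1 of 38 probe sets did, again that of SGK1, and NR4A2, an orphan nuclear receptor, had an SD of 0.31. On that of heat shock chaperones 1 of 45 did, DNAJA1, a co-chaperone of HSP70 (0.51).

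MHC and interferon genes varied in part. An SD of 0.5 or more was reached by 2 of 19 probe sets of class I genes. On the list of class II and BG genes 1 of 32 did, and on that of interferon-induced genes 3 of 46. MHCY4, a class I gene of the Y region, had an SD of 0.87, BF2 0.68, BG8, a butyrophilin-like gene of the B region, 0.94 with a lowest value of -4.18 in hen 58, IFI6 0.67 and IFIT5 0.59. Another probe set had an SD of 0.20 for BF2 and of 0.42 for BG8, and the leading BG8 probe set had 1.65 over LSL hens. On the macrophage list 1 of 31 probe sets reached 0.5. This was LYG2, a lysozyme g gene, with 0.81, whereas C1QC and C1QB, complement genes of microglia, had 0.31 each.

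Of the glial and vessel lists, 2 of 24 astrocyte, 2 of 35 myelin and 1 of 46 endothelium probe sets reached an SD of 0.5, and the median SDs of these lists were 0.20, 0.17 and 0.18. GFAP, the intermediate filament of astrocytes, had an SD of 0.65 and SLC1A3, a glutamate transporter, 0.52. On the myelin list both were of TF, the transferrin gene of the SOD3 group (0.54 and 0.53). CLDN11, the claudin of myelin, had 0.46 and CNP, a myelin enzyme, 0.36. PECAM1, an adhesion protein of endothelium and a member of the MAP1A group, had 0.71. Housekeeping lists varied least, with a median SD of 0.09 for the 127 probe sets of cytosolic ribosomal proteins and of 0.10 for the 52 of the respiratory chain. Of the circadian list 2 of 51 probe sets reached 0.5, with the kinase gene CSNK1E at 0.96, and of the hypoxia list 1 of 40, VEGFA (0.52). Of the ribosomal proteins, RPS14 had 1 probe set with an SD of 0.82 and RPL21 one of 0.73. No probe set reached 0.5 on the lists of haemoglobin and erythrocytes (24 probe sets, HBAD highest at 0.47), of pituitary, pineal and hypothalamic genes (24, POU1F1 highest at 0.31) and of cell cycle and new neurons (37, RRM2 highest at 0.33).

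Whether a gene varied more between hens of LB than of LSL was tested with limma on the absolute deviations from the median of line and set. In this Levene-type test 66 probe sets (0.171%) had a larger spread in LB and 48 (0.125%) a smaller one at an adjusted p under 0.05. The 114 included 87 with 1 symbol, of 83 genes, and 3 of the 23 level probe sets, RAB22A, CCDC84 and PRTFDC1, all with the larger spread in LB. Of the 213 members of the 6 groups 1 was among the 114, PLPP4 of the MAP1A group, named after its value was seen. Hens with 5' loss were left out of LB only. The LSL hens included hen 9 with an actin difference of -1.33, against -0.76 in the lowest LB hen kept. With the actin difference as covariate 111 probe sets were called, 108 of the 114 among them. The part of this unequal selection in the counts was not tested.

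RAB22A had the largest difference. Its mean deviation was 1.65 in LB and 0.22 in LSL, a difference of 1.42 (standard error 0.20, adjusted p = 2.5e-05 in limma). Values of 26 of the 29 LB hens lay outside the range of the LSL values. As each line was centred on its own median within each set, such counts here and below compare spread, not expression between the lines. In the first set of arrays the RAB22A median of LB fell in the gap between 6 hens (-1.25 to -0.93) and 6 hens (0.93 to 3.76). All LB hens described in that set thus lay outside the LSL range of -0.74 to 0.39. SAR1B, a GTPase of vesicle coats at the endoplasmic reticulum, had values between -1.35 and 2.56 in LB and between -0.33 and 0.33 in LSL (difference of the spread 0.65, adjusted p = 0.0062). C12orf45 had 21 LB hens outside the LSL range (0.64, adjusted p = 0.0001), and FIP1L1, a factor of polyadenylation, 18 (0.62, adjusted p = 0.013). The mean deviations of CCDC84, PRTFDC1, MRPS6 and KNSTRN, a spindle protein, were larger in LB by 0.73, 0.72, 0.70 and 0.63, with adjusted p between 0.0058 and 0.046. No other probe set of SAR1B, C12orf45, FIP1L1, CCDC84, PRTFDC1, MRPS6 or KNSTRN was called this way, whereas 1 other of RAB22A was. As RAB22A, CCDC84, PRTFDC1 and MRPS6 were also chosen for their SD in LB, their place there is not independent of this test.

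Smaller spreads in LB were those of ABCB1, the drug efflux pump of the blood-brain barrier, with mean deviations of 0.19 in LB and 0.85 in LSL at 1 probe set and of 0.21 and 0.61 at the other (adjusted p = 0.021 and 0.026). RDM1, a protein related to RAD52, lay between -0.23 and 0.18 in LB and between -2.16 and 1.36 in LSL (difference -0.61, adjusted p = 0.002). TSTD1, a sulfurtransferase-like protein, and HEATR5A had differences of -0.45 and -0.42. With each line around its own median, 17 and 18 LSL hens lay outside the LB range. CRYZ, a quinone oxidoreductase, had -0.45 and SMG6, an endonuclease of nonsense-mediated decay, -0.43. The adjusted p of these 4 in limma lay between 0.002 and 0.047. COMTD1, a protein with a methyltransferase domain, had mean deviations of 0.13 in LB and 0.52 in LSL, and 21 LSL hens lay outside the LB range. TSTD1 and COMTD1 had 1 probe set each, and no other probe set of RDM1, HEATR5A, CRYZ or SMG6 was called this way. Within hens 1 to 30 alone 10 probe sets passed and within hens 31 to 60 alone 14. All 114 differences kept their sign in both, but the 114 were called over these same hens, which favours such agreement. RAB22A passed within hens 1 to 30 only (within hens 31 to 60 its difference was 1.33, adjusted p = 0.082).

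**Figure D4:**
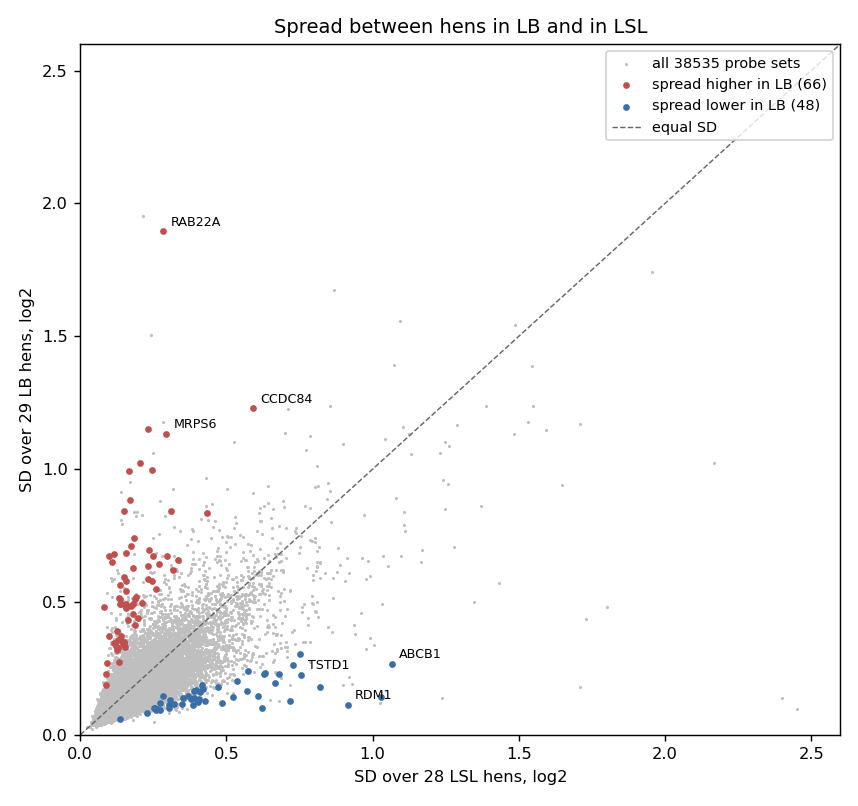
SD over 29 LB hens (y axis, log2) against SD over 28 LSL hens (x axis, log2) for all probe sets in grey, with the 66 probe sets of larger spread in LB in red and the 48 of smaller spread in LB in blue (limma on absolute deviations, adjusted p under 0.05); the dashed line marks equal SD. RAB22A lies at 1.90 in LB against 0.28 in LSL, and ABCB1 at 0.27 against 1.07.

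No probe set was called for group size or for side among LB hens. Between compartments of 54 and of 36, limma, in a fit that included the set of arrays, called 0 of 38535 probe sets at an adjusted p under 0.05 (0%), while 2275 had an unadjusted p under 0.05. Among the 523 probe sets with an SD of at least 0.5, 30 had an unadjusted p under 0.05, which is 5.74% against 5.90% of all. RAB22A differed by 1.22 (standard error 0.63, adjusted p = 0.85), KIT by -0.84 (0.48, adjusted p = 0.87), CA5A by -0.86 (0.60, adjusted p = 0.90) and MRPS6 by -0.77 (0.39, adjusted p = 0.85). Group scores overlapped widely: those of the CCK group were -0.26 ± 0.92 in compartments of 54 and 0.24 ± 0.75 in compartments of 36 (SD, n = 14 and 15). Between left and right, limma likewise called 0 probe sets (0%), with 2335 at an unadjusted p under 0.05 (6.06%), and 42 among the 523 (8.03%). The log2 difference between left and right was 2.002 for JCHAIN, 1.66 for IGLL1 and -1.68 for TTR, each with an adjusted p of 0.82. A design of 4 left against 25 right samples has little power.

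The first 3 principal components of the 29 hens took 15.5%, 8.63% and 6.42% of the variance. Component 1 was high in hens 4, 6, 39 and 2 and low in hens 36, 13, 26 and 46, and its largest positive loadings were those of DCBLD1, CSNK1E, GRIN2A and TTR, the first 3 of them members of the MAP1A group. Component 2 was lowest in hens 25, 26, 10 and 54, with KIT, RSPO3, TAC1, CCK and RORB at the positive end and SRI, LYG2 and RAB22A at the negative. Its correlation with the actin difference over 29 hens was r = 0.66 (permutation p = 0.00011, adjusted over 3 components 0.00033) and rho = 0.52 (permutation p = 0.0044, adjusted 0.013). Without the 2 hens farthest from the median of the actin difference, hens 10 and 26, r was 0.56. Without hen 25 as well it was 0.31 (permutation p = 0.12). The other hens spanned actin differences of only -0.14 to 0.24, so this value cannot decide how far the relation rests on these 3 hens. Within the sets of arrays r was 0.82 in hens 1 to 30, which hold all 3 of these hens, and 0.21 in hens 31 to 60. Components 1 and 3 had r of 0.22 and 0.02 with the actin difference (permutation p = 0.25 and 0.90, adjusted 0.38 and 0.90, rho of 0.05 and -0.17 with permutation p = 0.80 and 0.36, adjusted 0.80 and 0.54). A difference between group sizes was found in none of the 3 by a two-sided permutation test (p = 0.21, 0.86 and 0.68, adjusted 0.63, 0.86 and 0.86).

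**Figure D5:**
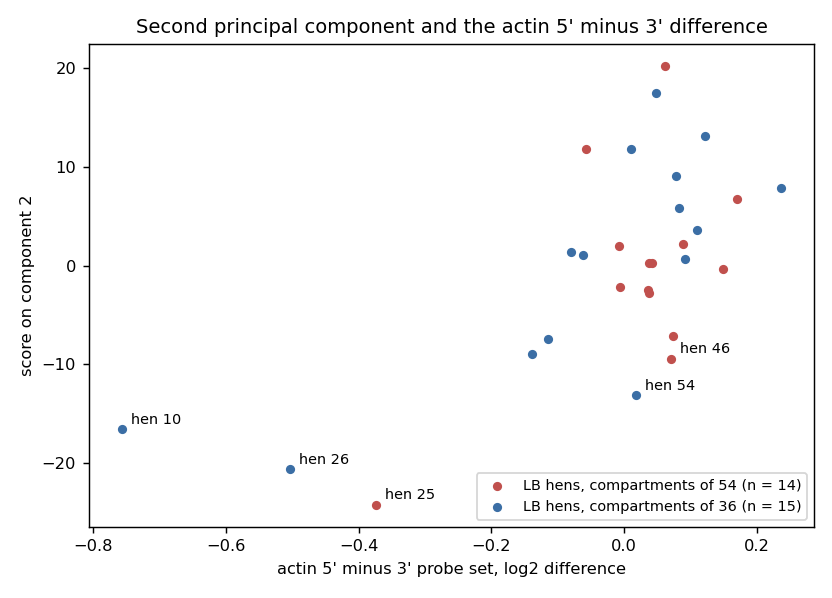
Score on the second principal component (y axis) against the log2 difference of the 5' and 3' actin probe sets (x axis) for 29 LB hens, red for compartments of 54 and blue for compartments of 36. Hens 10, 25 and 26 lie apart at actin differences of -0.76, -0.37 and -0.50 and low scores, and r without these 3 is 0.31.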

How the data were processed

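The authors scanned 1 Affymetrix chicken array per hen with GCOS and made the deposited log2 values with RMA in GeneSpring, centred on each probe set's median. This median was 0 within 1e-06 over hens 1 to 30 and over hens 31 to 60, both lines together, so the sets have different zero points. The LB median of the set was therefore subtracted again, here and not by the authors, and for LSL hens the LSL median. No filter on expression was possible. The LB hens and the gene lists were chosen with earlier results of these data known.

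SDs, clusters (average linkage on 1 minus Pearson r) and levels were computed in Python 3.11.15 with NumPy 2.4.6, SciPy 1.17.1 and pandas 2.3.3, and plotted with matplotlib 3.10.9. They got no test. Spread, group size and side were tested in R 4.3.3 with limma 3.58.1 (lmFit, eBayes) and data.table (1.17.8), adjusted by Benjamini-Hochberg over 38535 probe sets, and components with 100000 permutations. The code was tested on simulated data. Named are 20 probe sets by SD among those that have 1 symbol, up to 8 per group by mean r, 15 by gap, 4 per list by SD and 8 each way by spread, with exceptions named in place. Symbols follow GEO's annotation of the array, where 27178 probe sets have 1, 177 have several and 11180 have none. Neighbouring genes follow RefSeq, assembly GRCg7b. Overlapping genes and near-identical copies can share probes. The number of arrays limits the precision.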

Additional observations from a re-analysis of the deposited data

Results flagged for a closer look

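Dixon's 95% limit was applied to 30 values of the 4 left-side LB hens. These were components, group scores, the actin difference and the 20 leading probe sets. A hen was flagged where its gap to the others exceeded the limit, and there were 7 flags. For independent, normally distributed values chance flags about 1 in 20. The 20 probe sets were chosen for a large SD, some have separate levels, and the DSP group score contains DSP. The 7 flags can therefore not be set against that rate. Hen 43 stood apart with a DSP group score of 1.07 against -0.59 to -0.38 in the other 3, with DSP at 2.33 (others -0.26 to -0.13), ZIC1 at 0.59 (others -0.14 to -0.01) and MRPS6 at -1.06 (others 0.19 to 0.37). Hen 34 stood apart with GUCY1A2 at -3.43 (others -0.08 to 0.19) and IAPP at 3.96 (others -0.14 to 0.39), and hen 35 with NDUFS1 at -3.13 (others -0.33 to 0.21). For GUCY1A2, IAPP and NDUFS1 these hens were on the rarer of the levels described for all LB hens.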

How the results depend on the processing

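No paired analysis was possible because every number in the labels stands for 1 hen only. With all 32 LB hens, 1053 probe sets reached an SD of 0.5 (502 of the 523 among them), 324 probe sets fell in groups, against 213, and 233 showed levels, against 18. At most 36 of the 130 MAP1A group members were in 1 group there. The count of high SDs was 479 to 539 without single hens, and between 365 and 729 in the other settings. Clustering 1000 probe sets put 465 in groups. Over 29 hens, levels were called at 10 probe sets with a gap of 1.5 and at 29 with 2 hens on each side, and within each set at 6 with a gap of 1.5, against 12. The spread test called 435 probe sets with deviations from means (all 114 among them), 10 in the first set of arrays alone and 14 in the second alone, and between 80 and 148 in the other settings, against 114. Group size called 0 in every setting except within hens 31 to 60, where 1 passed, TSPOAP1 (log2 difference 0.27, adjusted p = 0.0086 from limma, against 0.12 and 0.86 over both sets), and side called 0 in each. Component 2 and the actin difference had r = 0.50 to 0.68 with probe sets scaled to unit SD, with right-side hens, with 500 probe sets and without hen 54, r = 0.064 (permutation p = 0.74) with all 32 hens, where the most similar component was the third (r = 0.78 with its scores), and, in a setting added after seeing the data, r = -0.049 (permutation p = 0.80) without hens 10, 25 and 26, where the component most like it was the fourth (r = 0.60 with its scores). Without hen 54, also added later, 3 of the 19 members of the ZIC1 group stayed together. The causes were not tested. Fewer hens also give the spread test less power, and the part of this in the lower counts was not tested either. Signal over background could not be judged, as the values are centred, and the separate zero points of the sets limit what levels can be called over both.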
